A study of Mus musculus with 12 samples.

Results

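The complement genes C1qa, C1qb, C1qc, C2, C3, C4b, Cfb, Serping1 and C3ar1 were examined in sorted microglia, the resident macrophages of the brain. They are 9 of 23579 genes with a symbol on the arrays, chosen by name as components, a regulator and a receptor of complement, and every probe whose accession maps to them was used. The expression arrays compared 3 genotypes with and without tMCAO, transient occlusion of the middle cerebral artery, a stroke model in which a brain artery is blocked and then reopened. Cells were enriched magnetically for the fractalkine receptor CX3CR1, and each of 6 groups held 2 arrays. The groups were ZEB1-overexpression after tMCAO, wild type after tMCAO, ZEB1-knock down after tMCAO, and, as controls taken before tMCAO, ZEB1-overexpression, ZEB1-knock down and wild type. All mice were males aged 8 weeks. ZEB1 is a zinc-finger transcription factor known as a repressor that binds E-boxes. What drives the transgene, how ZEB1 was knocked down, the time after tMCAO, and whether samples were pooled or came from separate animals are not stated in the labels used here. The p-values therefore cover no more than the variation among these samples, part or all of which may be technical.

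Complement is a cascade of secreted proteins that tags cells and debris for removal. In the classical pathway C1q, assembled from the products of C1qa, C1qb and C1qc, binds its target, and the proteases of C1 then cleave C4 and C2 to form an enzyme that splits C3. Factor B, the product of Cfb, forms the corresponding enzyme of the alternative pathway, Serping1 encodes the C1 inhibitor, and C3ar1 encodes the receptor for the C3a fragment. In the brain, microglia are known as a main source of C1q, and C1q and C3 are known for marking synapses that microglia remove.

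In the RefSeq annotation the genes C1qb, C1qc and C1qa lie next to each other on chromosome 4, with 0 genes between neighbours. Cfb and C2 lie side by side on chromosome 17 with 1 microRNA gene between them, C4b lies near them with 11 genes between C4b and Cfb, and C3 lies farther along the same chromosome. Serping1 is on chromosome 2 and C3ar1 on chromosome 6. Promoters are shown because most of these genes moved together after tMCAO. RefSeq promoter sequences (250 bases before to 50 after the gene's start, build GRCm38.p6, 5′ to 3′ on the gene's strand) were at hand for 4 of 9 genes, C1qb (chr4:136886151-136886450, minus strand), C1qc (chr4:136892865-136893164, minus strand), C3 (chr17:57228087-57228386, minus strand) and C3ar1 (chr6:122856108-122856407, minus strand). Capitals mark matches to 7 searched motifs on either strand.
C1qb: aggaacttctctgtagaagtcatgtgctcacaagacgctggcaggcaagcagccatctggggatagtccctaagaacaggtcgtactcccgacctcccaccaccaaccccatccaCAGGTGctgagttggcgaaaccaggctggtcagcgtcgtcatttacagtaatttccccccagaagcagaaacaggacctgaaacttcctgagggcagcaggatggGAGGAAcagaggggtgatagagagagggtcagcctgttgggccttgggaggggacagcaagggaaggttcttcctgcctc
C1qc: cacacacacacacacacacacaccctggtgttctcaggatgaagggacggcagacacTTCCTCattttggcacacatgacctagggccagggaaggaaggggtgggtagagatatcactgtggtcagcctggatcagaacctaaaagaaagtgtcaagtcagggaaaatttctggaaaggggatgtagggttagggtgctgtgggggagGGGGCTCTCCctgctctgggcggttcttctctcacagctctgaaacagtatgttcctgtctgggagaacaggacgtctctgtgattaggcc
C3: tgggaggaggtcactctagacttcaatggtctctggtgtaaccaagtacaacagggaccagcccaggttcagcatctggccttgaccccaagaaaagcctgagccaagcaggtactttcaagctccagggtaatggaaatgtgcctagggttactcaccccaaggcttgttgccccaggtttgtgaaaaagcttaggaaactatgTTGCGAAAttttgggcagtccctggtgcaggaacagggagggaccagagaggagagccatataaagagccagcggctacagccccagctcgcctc
C3ar1: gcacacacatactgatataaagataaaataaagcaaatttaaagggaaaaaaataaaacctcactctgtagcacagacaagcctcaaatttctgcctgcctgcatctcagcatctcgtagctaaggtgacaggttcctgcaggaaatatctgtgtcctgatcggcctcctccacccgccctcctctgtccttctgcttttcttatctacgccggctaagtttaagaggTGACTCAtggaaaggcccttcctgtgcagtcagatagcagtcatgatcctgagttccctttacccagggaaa
The motif CACCTG, the E-box known to bind ZEB1, matched in C1qb at -135 to -130 from the gene's start and is held by 20.2% of 32851 promoters of the same length. GAGGAA, the core bound by the myeloid factor PU.1, matched in C1qb at -30 to -25 and in C1qc at -193 to -188 (28.3% of promoters). The NF-kappaB consensus matched in C1qc at -41 to -32 (4.51%), the C/EBP motif TTGCNNAA in C3 at -45 to -38 (10.8%), and the AP-1 motif TGANTCA in C3ar1 at -22 to -16 (7.81%). The matches do not overlap each other. The interferon-response element, GAAA repeated after any 2 bases (3.44%), and the STAT motif TTCNNNGAA (8.3%) had no match, which says only that these letters are not in these windows. A match is a description of the sequence and not a measured site.

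One slide, of 4 arrays, carried ZEB1-overexpression and wild type after tMCAO, and a second design with 8 arrays carried the remaining 4 groups. The designs carried 11 and 12 probes of the complement genes, of which 9 probes were shared. Levels are log2 signal relative to the array's 75th percentile, so that 0 is the brightness exceeded by 25% of spots, and they are comparable between arrays of a slide for the same probe. In intensity units the 75th percentile ran from 1078 to 1515 on the smaller slide and from 2566 to 3702 on the larger, 60.4% to 73.9% of spots were well above background, and arrays of a group correlated closely across genes (lowest r 0.975), although genes are not independent of each other. The scanner software marked 1.03% to 23.7% of an array's spots as non-uniform or outlying, and marked spots were left out of the main test. The number of arrays limits the precision. Zeb1 itself, on its brighter probe, lay at -0.66 and -0.67 in ZEB1-knock down after tMCAO and at -0.28 and -0.36 in ZEB1-overexpression, -0.11 and -0.79 in ZEB1-knock down and -0.57 and -0.59 in wild type before tMCAO. On the 4-array slide Zeb1 lay at -0.08 and 0.56 in ZEB1-overexpression and 0.12 and 0.41 in wild type. Before tMCAO the knock down arrays overlapped wild type and the overexpression arrays lay above it on this probe, and they overlapped on the other Zeb1 probe. The groups also overlapped on the 4-array slide, which was read with another probe. Whether the Zeb1 probes read an introduced transcript, or the part targeted by the knock down, is unknown here, so the labels could not be checked with them. Microglial markers were well above background. P2ry12 lay between 0.41 and 1.62 and Tmem119 between -0.05 and 1.28 on the 8-array slide, and between 2.18 and 2.69 and between 3.45 and 3.89 on the 4-array slide. Transcripts of other brain cells were also well above background on every array, among them Mbp of oligodendrocytes and Snap25 of neurons. In wild type before tMCAO microglial markers summed to 28.8 to 30.7, in linear units of the array's 75th percentile. Neuron markers summed to 58.8 to 63.3, astrocyte markers to 54.0 to 57.3 and oligodendrocyte markers to 45.8 to 50.5. The lists of blood cells, vessel cells and hepatocytes summed lower. Sums over different genes do not measure shares of cells.

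The design names the genotypes before and after tMCAO, and ZEB1-knock down is the genotype whose arrays before and after tMCAO share a slide. Complement genes were higher after tMCAO. Of 8 genes that could be tested, C1qa, C1qc, C3, C4b, Serping1 and C3ar1 rose and 0 fell, against 11.1% of 24646 genes that rose and 7.03% that fell. Counts over all genes include unnamed targets, each taken by its accession as 1 gene. C2 and Cfb did not pass, and C1qb had a value only with marked spots kept, where it rose. The median log2 difference of the 8 was 1.75, against 0.04 over all genes tested. Of all genes called, 61.2% were higher, against 78.4% with normexp background correction and 44.6% with quantile normalization, which put the median of all genes at 0.21 and -0.10, and the 6 genes kept their direction under both. In sorted but bulk RNA, fewer cells of a type and less RNA per cell cannot be told apart.

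The 3 chains of C1q lay higher after tMCAO. C1qa had levels of 3.54 and 3.43 in ZEB1-knock down after tMCAO, against 2.46 and 2.61 before. C1qb lay at 3.99 and 3.72 after tMCAO, against 2.60 and 2.74 before, and C1qc at 3.14 and 2.86 after tMCAO, against 1.5 and 1.58 before. For each chain both arrays after tMCAO lay above both arrays before it, and the replicates of a group lay within 0.28 of each other. The log2 difference was 1.01 ± 0.18 (SE) in C1qa (limma adjusted p = 0.0353) and 1.60 ± 0.19 in C1qc (adjusted p = 0.0153), each on 1 array after tMCAO because the spot of the other was marked. With marked spots kept, so that 2 arrays stood in each group, the differences were 0.95 ± 0.18 in C1qa (adjusted p = 0.0206), 1.19 ± 0.17 in C1qb (adjusted p = 0.00936) and 1.46 ± 0.18 in C1qc (adjusted p = 0.00711). The neighbouring chains thus had intervals that overlapped, at 0.52 to 1.38, 0.79 to 1.59 and 1.03 to 1.89 (95%).

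Among the components downstream of C1q, C4b, which encodes the mouse C4 protein, had levels of 1.91 and 1.70 in ZEB1-knock down after tMCAO, against 0.13 and -0.24 before. Its other probe gave 1.51 and 0.99 after tMCAO, against -0.61 and -0.94 before. The groups did not overlap on either probe. C4b rose by 1.86 ± 0.18 on the log2 scale (3.62-fold, adjusted p = 0.00447), and the difference on the other probe was 2.03. C4a is a near-identical copy of C4b, and how far the probes take up its transcript is uncertain. C2, the serine protease that acts with C4, had levels of -0.88 and -0.34 after tMCAO, against -0.71 and -1.05 before. These overlapped, and the difference of 0.27 ± 0.23 did not pass (95% interval -0.30 to 0.83, adjusted p = 0.438).

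C3, the protein on which all pathways converge, lay at 0.03 and -0.89 in ZEB1-knock down after tMCAO, against -2.95 and -2.94 before. The other C3 probe lay at -0.28 and -1.35 after tMCAO, against -3.54 and -3.19 before. Both probes separated the groups, and the arrays after tMCAO were 0.92 and 1.07 apart. C3 rose by 2.52 ± 0.31 (5.72-fold, adjusted p = 0.00752), with a difference of 2.55 on the other probe. Cfb, which encodes factor B, had levels of -1.43 and -3.71 after tMCAO, against -4.33 and -4.29 before. The groups did not overlap, but the arrays after tMCAO were 2.28 apart, a gap reached by 1.17% of genes. The difference of 1.75 ± 0.79 did not pass (95% interval -0.17 to 3.66, adjusted p = 0.164). On the other Cfb probe the arrays lay at -2.09 and -5.36 after tMCAO, against -5.19 and -5.04 before, and the groups overlapped. That probe gave a difference of -0.24 with its marked spot left out. The summed level of 11 measured interferon-response genes was also higher on the first than on the other array after tMCAO, with 27.5 and 10.8 after tMCAO, against 8.86 and 7.67 before, in linear units of the array's 75th percentile, and 0 of 8 tested were called. Its part in the Cfb values was not tested.

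Serping1, whose product blocks the proteases of C1, had levels of 0.30 and 0.18 in ZEB1-knock down after tMCAO, against -1.78 and -1.26 before. Both arrays after tMCAO lay higher, and Serping1 rose by 1.76 ± 0.19 (3.38-fold, adjusted p = 0.00591). C3ar1, the C3a receptor, had levels of 0.73 and -0.65 after tMCAO, against -3.13 and -3.27 before. The groups were far apart although the arrays after tMCAO differed by 1.38, a gap reached by 5.64% of genes. C3ar1 rose by 3.24 ± 0.44 (9.46-fold, adjusted p = 0.00944), which was the largest difference among the 9 genes in this comparison.

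**Figure D1:**
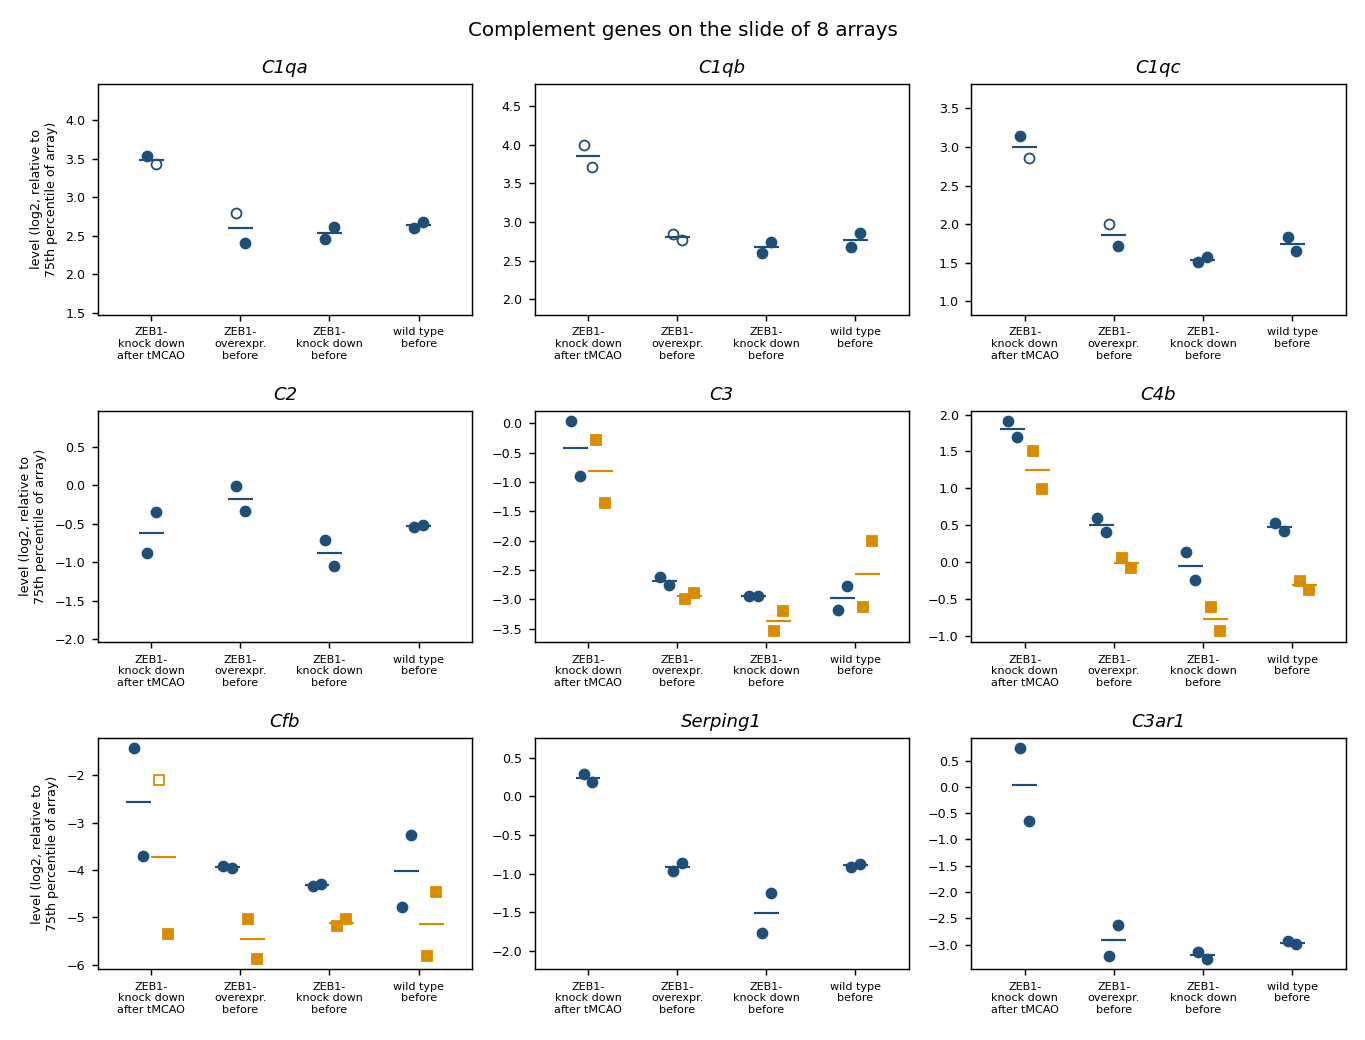
Levels of the 9 complement genes on the 8-array slide, by group, with 1 point per array (log2, 0 at the array's 75th percentile). Circles are the probe used in the test, squares the other probe of the gene, open symbols are spots marked by the scanner software, and lines are group means. The ZEB1-knock down arrays after tMCAO stand above the arrays before tMCAO for every gene except C2 and 1 array of Cfb, whose other probe overlaps.

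Both arrays of ZEB1-knock down after tMCAO lay above both arrays before it for 8 of 9 genes on the probe tested, against 33.6% of genes. With marked spots kept, 7 of 9 genes rose, against 10.1% of 30525 genes. The calls depended on the arrays after tMCAO, where C1qa and C1qc had 1 array each, and on those of ZEB1-knock down before tMCAO. Without replicate 1 of that group 3 genes passed (C3, C4b and Serping1), and without replicate 2 C4b and Serping1 passed and C3 did not (adjusted p = 0.0516), whereas the differences moved little, at 0.93 and 1.08 in C1qa and 3.31 and 3.18 in C3ar1. Without replicate 2 after tMCAO Cfb also passed, at 2.88 (adjusted p = 0.0368), and without replicate 1 after tMCAO C1qa and C1qc had no value. The arrays after tMCAO lay in row 1, columns 1 and 2 of the slide with 20.8% to 23.5% of spots marked, and those before tMCAO in row 2, columns 3 and 4 with 1.03% to 1.87%, so place on the slide and tMCAO cannot be told apart. The arrays of ZEB1-overexpression before tMCAO, in the same columns as the arrays after tMCAO and with 18.2% to 23.7% of spots marked, had C3 at -2.62 and -2.75 and C3ar1 at -3.22 and -2.62. On these arrays, on the probe tested, all complement genes but C1qa and C3ar1 lay above both ZEB1-knock down arrays before tMCAO. Such a separation was seen in 31.8% of genes. The part of place on the slide and of marked spots was not tested.

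**Figure D2:**
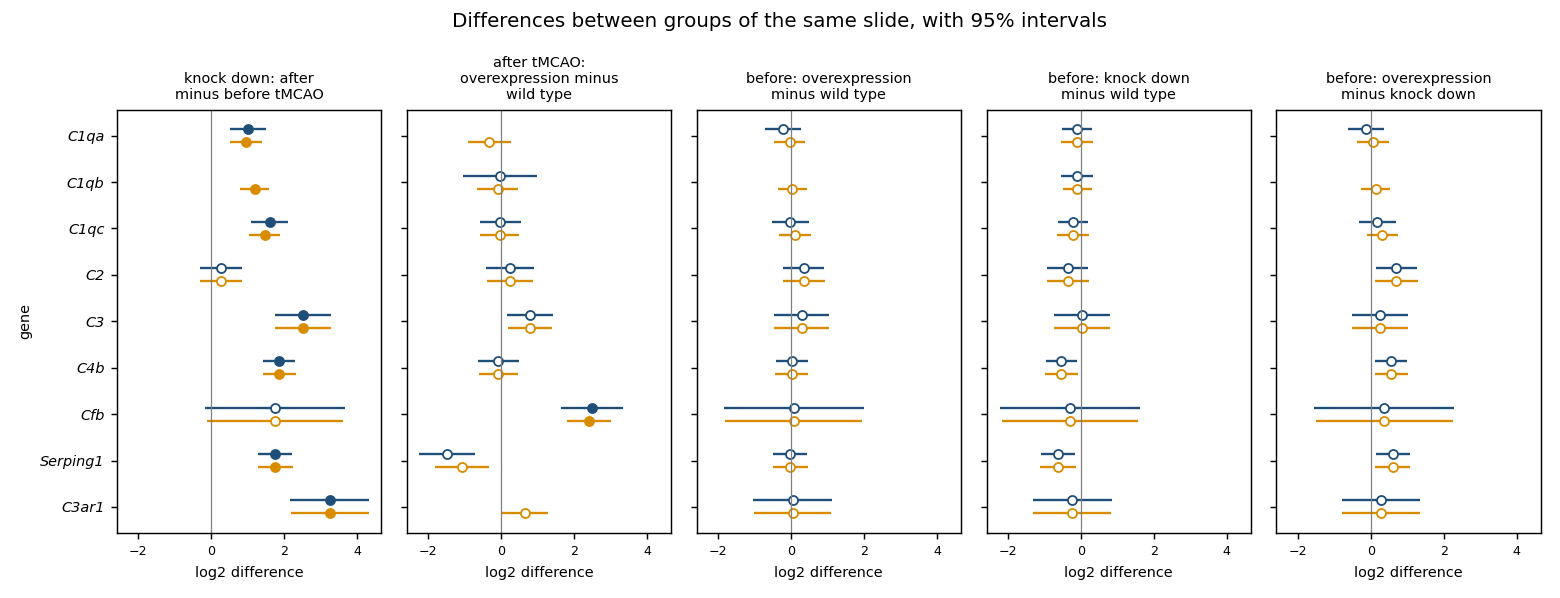
Log2 differences of the 9 genes in each tested comparison with 95% intervals, the gene in rows and the difference on the horizontal axis. Blue is the main test, orange the test with marked spots kept, and filled points have an adjusted p under 0.05. Filled points stand in ZEB1-knock down after against before tMCAO and at Cfb in ZEB1-overexpression against wild type after tMCAO.

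Markers of other cells moved in the same comparison. The summed level of 10 markers of monocytes and border macrophages was 26.9 to 28.2 in ZEB1-knock down after tMCAO and 9.15 to 9.48 before, and 6 of 8 tested markers rose. Its brightest members were Ly6c2 at 0.62 ± 0.20 (adjusted p = 0.0897), which did not pass, and Pf4, which rose by 2.14 ± 0.26 (adjusted p = 0.0168). Microglial markers summed to 36.0 to 42.9 after tMCAO and 26.7 to 27.3 before, and 3 of 6 tested rose, with Csf1r at 2.98 and 2.63 after tMCAO, against 2.43 and 2.47 before (adjusted p = 0.0785). Endothelial and mural markers summed to 15.5 to 15.7 after tMCAO and 8.61 to 9.68 before, and 4 of 8 tested rose, among them Cldn5 by 0.87 ± 0.20 (adjusted p = 0.0427), whereas Flt1 was at -0.47 ± 0.19 (adjusted p = 0.127). Oligodendrocyte markers, among them Mbp, summed to 54.9 to 56.4 after tMCAO and 39.3 to 40.1 before, and 1 of 2 tested rose. Astrocyte markers, led by Aldoc and S100b, summed to 57.8 to 66.1 after tMCAO and 48.9 to 49.7 before, and 1 of 6 tested rose. Neutrophil markers, led by S100a9 and S100a8, summed to 7.82 to 9.25 after tMCAO and 5.26 to 5.92 before, with 0 of 5 called. Neuron markers, led by Snap25 and Syt1, summed to 49.1 to 53.9 after tMCAO and 59.6 to 60.4 before, and 1 of 3 tested fell. Lymphocyte markers, led by Cd4 and Cd79b, summed to 0.55 to 1.09 after tMCAO and 0.70 to 0.82 before, where 1 of 7 tested rose and 2 fell, with Ms4a1 never well above background. Hepatocytes are the main source of plasma complement. Their markers summed to 8.85 to 11.7 after tMCAO and 13.9 to 15.3 before, led by Ttr, which choroid plexus also expresses, and Serpina1a. Of 2 tested, 1 rose. Ttr lay at 3.14 and 3.54 after tMCAO, against 3.79 and 3.93 before. Serpina1a went the other way, at -4.97 and -4.03 after tMCAO, against -6.60 and -6.06 before. Alb, Ahsg and Fgb were not well above background on any array of the slide. The part of the other markers in the complement values was not tested.

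The remaining complement genes were described with the same test, over a list of 45 genes of which 35 could be tested. Of these 12 rose in ZEB1-knock down after tMCAO and 2 passed toward lower values, 1 of them without a measured level after tMCAO, against 11.1% higher and 7.03% lower among all genes. The median log2 difference was 0.55, against 0.04 over all genes. By role, 5 of 12 genes of activation, 1 of 3 of the terminal pathway, 1 of 12 regulators and 5 of 8 receptors rose, and both genes that passed toward lower values were regulators. The median was 1.23 for activation, 0.29 for the terminal pathway, -0.06 for regulators and 2.07 for receptors.

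Among receptors, Vsig4, the complement receptor of tissue macrophages that binds C3 fragments, had levels of -3.16 and -1.98 after tMCAO, against -6.81 and -8.56 before. It rose by 5.11 ± 0.68 (adjusted p = 0.00899), with 1 of 2 arrays before tMCAO well above background, so the size of its difference is not firmly measured. C5ar1, the main C5a receptor, lay at 0.03 and -1.07 after tMCAO, against -3.66 and -4.01 before, and rose by 3.32 ± 0.38 (adjusted p = 0.0065). Both receptors were higher on each array after tMCAO. Itgax, the alpha chain of complement receptor CR4, had the next largest difference, at 2.98 ± 0.89, and did not pass (adjusted p = 0.0651). Its arrays lay at -2.11 and -5.20 after tMCAO, against -6.76 and -6.51 before, with 1 of 2 arrays before tMCAO well above background. The beta chain gene Itgb2 rose by 2.09 ± 0.25, the C5a receptor gene C5ar2 by 1.37 ± 0.24, and Cd93, a receptor once described as binding C1q, by 2.05 ± 0.16. Itgam, the alpha chain of complement receptor CR3, was at 0.10 ± 0.15 (95% interval -0.25 to 0.46, adjusted p = 0.637).

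Of the activation genes, C1s1 rose by 1.57 ± 0.24 and C1s2 by 1.78 ± 0.20, both encoding the C1 protease that the C1 inhibitor blocks and near-identical copies of each other. C4a rose by 1.1 ± 0.15, Cfp, which encodes properdin, the stabiliser of the alternative pathway, by 1.69 ± 0.18, and the lectin pathway protease gene Masp2 by 2.05 ± 0.43 on 1 array after tMCAO, with 1 of 2 arrays before tMCAO well above background. Hc, which encodes C5, rose by 0.77 ± 0.15. Of the regulators, Cfi, whose product cleaves C3b and C4b, was not well above background before tMCAO. It passed the test toward higher values on 1 array after tMCAO, because the spot of the other was marked. With the marked spot kept, so that both arrays after tMCAO counted, Cfi was at least 5.29-fold higher. That bound does not hold for the tested array alone. Cd55, a membrane inhibitor of the C3-cleaving enzymes, fell by 0.94 ± 0.18 on 1 array after tMCAO (adjusted p = 0.0285). C4bp, a regulator of C4b, passed the test toward lower values (adjusted p = 0.0341) but was not well above background on either array after tMCAO. Its bound was 0.892, under 1, so the size of a fall is not shown. A bound of this kind sets the brighter group's mean against, on each array of the dim group, the higher of the lowest signal well above background and the probe's own signal.

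**Figure D3:**
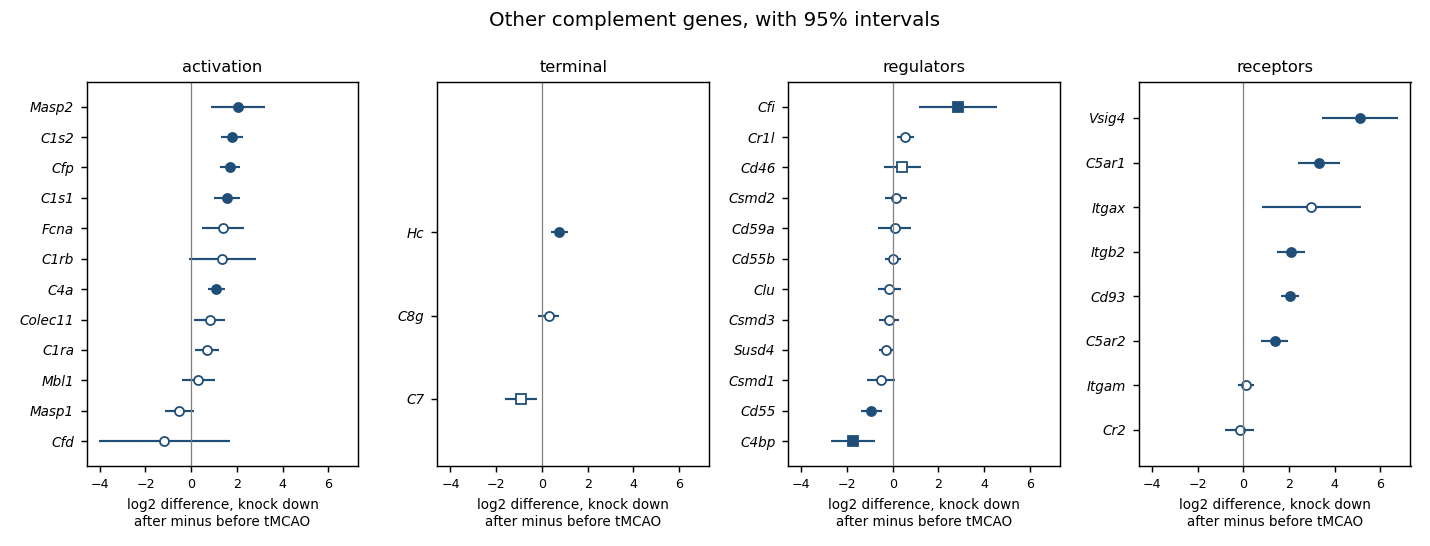
Log2 differences of the 35 other complement genes tested, ZEB1-knock down after minus before tMCAO, with 95% intervals, by role. Filled points have an adjusted p under 0.05, and squares mark genes not well above background in a group, whose value is not a measured fold. The largest plotted values are those of Vsig4 at 5.11, with 1 array before tMCAO not well above background, and C5ar1 at 3.32.

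ZEB1-overexpression was then compared with wild type after tMCAO, on the 4-array slide. Cfb was higher in ZEB1-overexpression and was the 1 of 7 tested complement genes that rose, against 1.59% of 22072 genes, and 0 fell, against 0.748%. Cfb had levels of 2.17 and 2.62 in ZEB1-overexpression, against 0.08 and -0.09 in wild type. The groups lay far apart relative to gaps of 0.45 and 0.17 within them. Cfb rose by 2.49 ± 0.35 (5.61-fold, adjusted p = 0.0297) on 2 arrays of ZEB1-overexpression and 1 of wild type, and by 2.40 ± 0.26 when the marked spot was kept (adjusted p = 0.00947), where 1.95% of genes rose. The call rests on wild type replicate 2, since the spot of replicate 1 was marked, and without replicate 2 Cfb had no value. Without replicate 1 the Cfb difference stayed the same, but the fit over all genes had fewer arrays and the call was lost. Without a filter on dim probes limma called 0 of 31284 genes, and Cfb had an adjusted p of 0.204.

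C3 and C3ar1 also had higher levels in ZEB1-overexpression on every array. C3 lay at 2.91 and 3.36 in ZEB1-overexpression, against 2.42 and 2.28 in wild type. This probe is printed 10 times per array, and its spots ran from 2.76 to 3.12 and from 3.27 to 3.43 on the ZEB1-overexpression arrays and from 2.18 to 2.61 and from 2.19 to 2.39 on the wild type arrays. The spots of the genotypes did not overlap, although spots of 1 array are not replicates. The difference of 0.79 ± 0.26 did not pass (95% interval 0.17 to 1.42, adjusted p = 0.157). The other C3 probe lay at 2.09 and 2.98 in ZEB1-overexpression, against 1.58 and 1.35 in wild type, with all its spots marked. C3ar1 lay at 2.82 and 2.56 in ZEB1-overexpression, against 2.28 and 1.79 in wild type, and had a value only with marked spots kept, 0.66 ± 0.27 (adjusted p = 0.207).

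**Figure D4:**
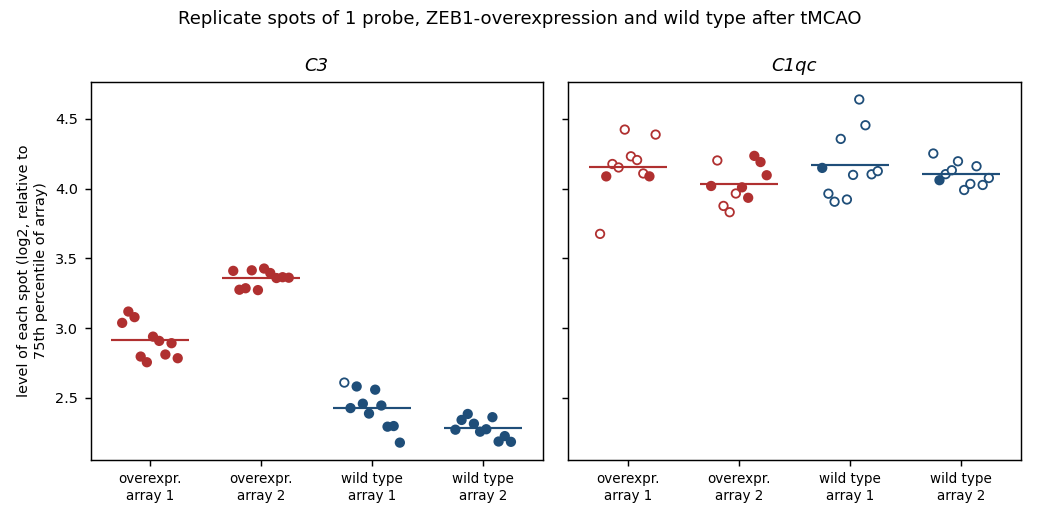
Single spots of the C3 and C1qc probes that are printed 10 times on each array of the 4-array slide, as level (log2, 0 at the array's 75th percentile). Open circles are spots marked by the scanner software and lines are array means. C3 spots of ZEB1-overexpression lie above those of wild type, and C1qc spots of all 4 arrays overlap.

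Serping1 lay the other way, at -0.11 and -0.91 in ZEB1-overexpression, against 0.66 and 0.49 in wild type. The groups did not overlap on this probe. Its difference of -1.48 ± 0.31, on 1 array of ZEB1-overexpression, did not pass (adjusted p = 0.0763), and it was -1.08 ± 0.31 with marked spots kept (adjusted p = 0.109). Without replicate 1 of ZEB1-overexpression, whose spot was marked, the same difference passed (adjusted p = 0.0344). The other Serping1 probe lay at -0.71 and -2.67 in ZEB1-overexpression, against -0.41 and -0.83 in wild type, and overlapped. Across the 9 genes, 3 were higher and 2 lower on every ZEB1-overexpression array on the probe tested, against 21.6% and 33.8% of genes.

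The C1q chains, C4b and C2 did not pass between the genotypes after tMCAO, and their differences were small beside that of Cfb. C1qa lay at 4.89 and 4.79 in ZEB1-overexpression, against 5.38 and 4.94 in wild type, with every spot marked and both ZEB1-overexpression arrays lower. With those spots kept its difference was -0.32 ± 0.25 (95% interval -0.91 to 0.28, adjusted p = 0.490). C1qb lay at 4.84 and 4.70 in ZEB1-overexpression, against 5.01 and 4.73 in wild type. C1qc lay at 4.15 and 4.04 in ZEB1-overexpression, against 4.17 and 4.10 in wild type, over 10 spots per array. For C1qc the interval of the difference was -0.58 to 0.53. C4b lay at 3.61 and 3.46 in ZEB1-overexpression, against 3.65 and 3.57 in wild type (interval -0.64 to 0.48). C2 lay at 0.85 and 0.48 in ZEB1-overexpression, against 0.63 and 0.21 in wild type (interval -0.41 to 0.90). Each of these 3 intervals includes 0. The signs of C1qb, C1qc and C4b turned under quantile normalization.

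**Figure D5:**
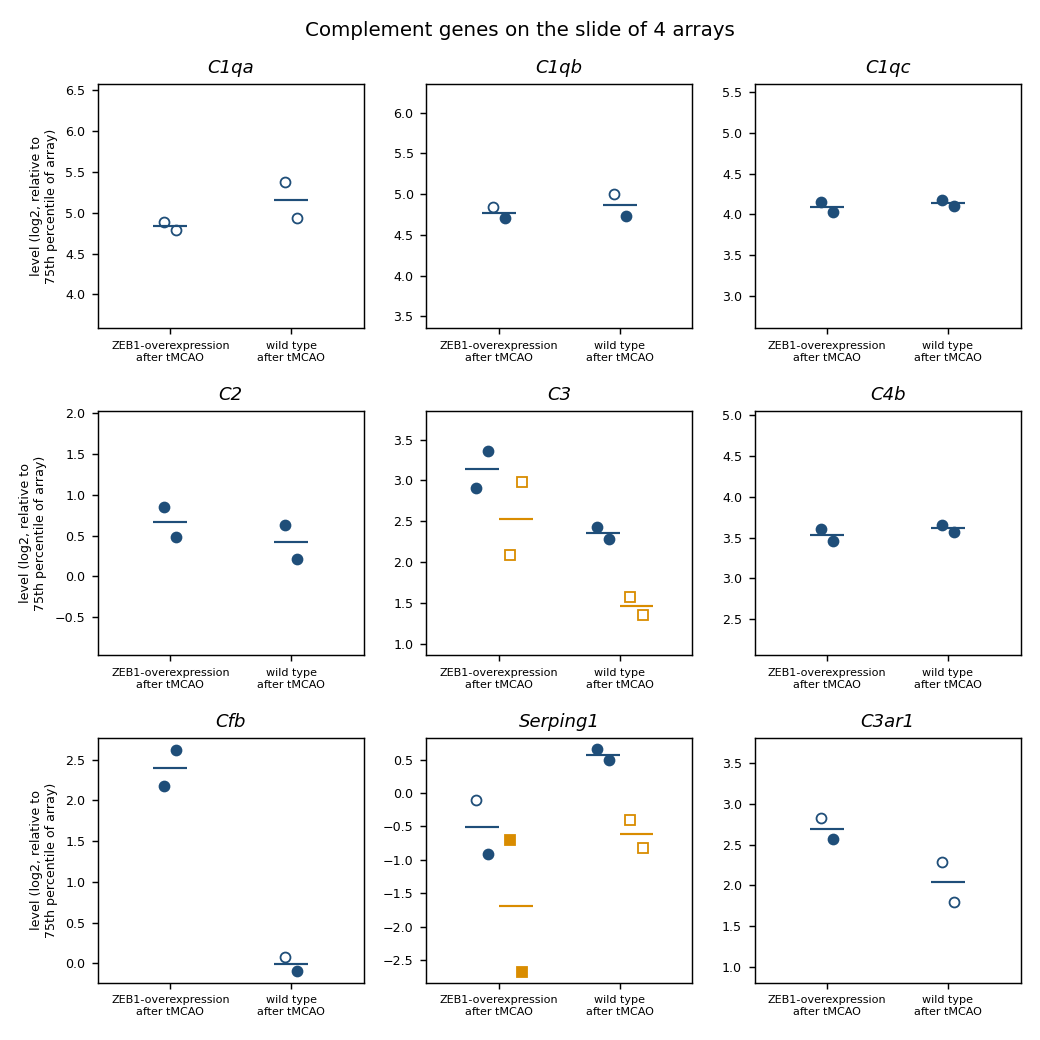
Levels of the 9 complement genes on the 4-array slide after tMCAO (log2, 0 at the array's 75th percentile), with 1 point per array, circles for the probe tested, squares for the other probe, open symbols for marked spots and lines for group means. Cfb separates ZEB1-overexpression (2.17 and 2.62) from wild type (0.08 and -0.09) by more than any other gene shown.

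Other readouts moved in this comparison too. Interferon-response genes summed to 64.5 to 68.3 in ZEB1-overexpression and 16.4 to 17.9 in wild type, and 6 of 9 tested rose, among them Isg15 by 1.72 ± 0.24 (adjusted p = 0.0218) and Rsad2 by 2.0 ± 0.31 (adjusted p = 0.0378). Monocyte and border macrophage markers, led by Chil3 and Pf4, summed to 44.1 to 44.6 in ZEB1-overexpression and 31.5 to 34.9 in wild type, with 0 of 7 called. Endothelial and mural markers, led by Vwf and Flt1, summed to 14.8 to 17.5 in ZEB1-overexpression and 29.4 to 30.0 in wild type, with 0 of 8 called. Microglial markers, led by Csf1r and Aif1, summed to 100.5 to 111.2 in ZEB1-overexpression and 110.2 to 114.1 in wild type, with 0 of 6 called. Neutrophil markers, led by S100a9 and Retnlg, summed to 78.2 to 79.2 in ZEB1-overexpression and 66.7 to 75 in wild type, and 1 of 3 tested rose. Lymphocyte markers, led by Nkg7 and Cd79b, summed to 12.9 to 23.0 in ZEB1-overexpression and 11.9 to 12.4 in wild type, with 0 of 7 called. Astrocyte, oligodendrocyte and neuron markers summed to 49.2 to 49.8, 23.5 to 24.9 and 32.6 to 46.1 in ZEB1-overexpression and to 56.4 to 57.0, 30.5 to 30.8 and 49.8 to 51.2 in wild type, with 0 of 5, 0 of 4 and 0 of 3 called. Hepatocyte markers, led by Ttr and Serpina1a, summed to 14.9 to 16.2 in ZEB1-overexpression and 14.6 to 17.8 in wild type, with 0 of 1 called. Ahsg and Apoa1 were not well above background on any array. Their part in the Cfb value was not tested. Row 2 of the slide held ZEB1-overexpression and row 1 wild type, so genotype and row cannot be told apart. Of the other complement genes, 1 of 25 tested passed, C1rb, a C1r gene copy, at least 2.47-fold higher in ZEB1-overexpression, with both wild type arrays not well above background and taken at the probe's own signal (adjusted p = 0.0463). The median over these 25 was -0.09, against -0.11 over all genes.

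Before tMCAO no difference between genotypes passed for any of the 9 genes. Between ZEB1-overexpression and wild type limma called 0 of 8 tested genes (0% of 25162 genes) and 0 had an unadjusted p under 0.05, against 11.6% of all genes. Between ZEB1-knock down and wild type it called 0 of 9 (0% of 30293) and 2 had an unadjusted p under 0.05, against 8.76%. Between ZEB1-overexpression and ZEB1-knock down it called 0 of 8 (0% of 25167) and 3 had an unadjusted p under 0.05, against 14.8%. These comparisons share arrays, the last with both others. Each genotype also held its own place on the slide. ZEB1-overexpression lay in row 2, columns 1 and 2, with 18.2% to 23.7% of spots marked. ZEB1-knock down lay in row 2, columns 3 and 4 (1.03% to 1.87%), and wild type in row 1, columns 3 and 4 (1.26% to 3.28%). Genotype before tMCAO thus cannot be told apart from place on the slide. Of the other complement genes 0 of 34, 0 of 38 and 0 of 34 were called.

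The lowest levels before tMCAO stood in ZEB1-knock down for C4b and Serping1. C4b lay at 0.13 and -0.24 in ZEB1-knock down, against 0.53 and 0.43 in wild type, a difference of -0.53 ± 0.18 (adjusted p = 0.454). Serping1 lay at -1.78 and -1.26 in ZEB1-knock down, against -0.91 and -0.88 in wild type, a difference of -0.62 ± 0.19 (adjusted p = 0.423). Neither overlapped, and with C1qc, C2 and C3ar1 they made 5 of 9 genes lower on both ZEB1-knock down arrays, against 30% of all genes, with 0 of 9 higher, against 13.9%. In ZEB1-overexpression C4b lay at 0.60 and 0.41 and Serping1 at -0.96 and -0.87. Set against the same ZEB1-knock down arrays, the differences were 0.56 ± 0.18 in C4b (adjusted p = 0.270), 0.60 ± 0.19 in Serping1 (adjusted p = 0.270) and 0.71 ± 0.23 in C2 (adjusted p = 0.278). With marked spots kept, both ZEB1-overexpression arrays lay above both ZEB1-knock down arrays for 7 of 9 genes, against 31.8% of genes. In the main test the median difference of the 8 tested was 0.33, against 0.10 over all genes.

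C2 had the highest levels before tMCAO in ZEB1-overexpression, at -0.01 and -0.33, against -0.54 and -0.51 in wild type. These did not overlap, and the difference of 0.35 ± 0.23 did not pass (adjusted p = 0.606). On the probe tested, 2 of 9 genes, C2 and C3, were higher on both ZEB1-overexpression arrays than in wild type, against 22.8% of genes. Lower on both were 0 of 9, against 24.5%. C3 lay at -2.62 and -2.75 in ZEB1-overexpression, against -3.18 and -2.77 in wild type. On the other C3 probe the groups overlapped, with a difference of -0.38. On the other C4b probe both ZEB1-overexpression arrays lay higher, with a difference of 0.31. The C1q genes were close in all groups before tMCAO. C1qa lay at 2.79 and 2.41 in ZEB1-overexpression, 2.46 and 2.61 in ZEB1-knock down and 2.60 and 2.68 in wild type. C1qb lay at 2.84 and 2.77 in ZEB1-overexpression, 2.60 and 2.74 in ZEB1-knock down and 2.68 and 2.86 in wild type. C1qc lay at 2.0 and 1.72 in ZEB1-overexpression, 1.5 and 1.58 in ZEB1-knock down and 1.83 and 1.66 in wild type. The groups overlapped for C1qa, and for C1qb and C1qc the ZEB1-overexpression arrays lay above ZEB1-knock down. These levels keep marked spots. In ZEB1-overexpression the C1qb spots of both arrays were marked, as were the C1qa and C1qc spots of replicate 1. The intervals of ZEB1-knock down minus wild type were -0.51 to 0.30 for C1qa, -0.53 to 0.33 for C1qb and -0.62 to 0.21 for C1qc, all of which include 0. Cfb had the widest replicate gap of the 9 genes in wild type before tMCAO, with -3.92 and -3.96 in ZEB1-overexpression, against -4.77 and -3.26 in wild type, and its interval for ZEB1-overexpression minus wild type was -1.84 to 1.99. C3ar1 lay at -3.22 and -2.62 in ZEB1-overexpression, at -3.13 and -3.27 in ZEB1-knock down and at -2.93 and -2.99 in wild type.

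Wild type and ZEB1-overexpression have their arrays before and after tMCAO on different slides, so slide and tMCAO cannot be told apart for them, and levels stand side by side without a test. C3 lay at 2.42 and 2.28 in wild type after tMCAO and at -3.18 and -2.77 before. C3ar1 lay at 2.28 and 1.79 in wild type after tMCAO and at -2.93 and -2.99 before, and C1qa at 5.38 and 4.94 after and 2.60 and 2.68 before. C2 lay at 0.63 and 0.21 in wild type after tMCAO and -0.54 and -0.51 before, and Serping1 at 0.66 and 0.49 after and -0.91 and -0.88 before. In ZEB1-overexpression Cfb lay at 2.17 and 2.62 after tMCAO and at -3.92 and -3.96 before. All but C4b, that is 8 genes, had a tested probe shared by the designs. For these the levels of wild type were higher on the slide that holds the arrays after tMCAO. The share of all shared probes that were higher there was not counted. Microglial markers of wild type summed to 110.2 to 114.1 on that slide and 28.8 to 30.7 on the other. Neuron markers summed to 49.8 to 51.2 and 58.8 to 63.3. The probe of a marker may differ between the designs. How far probe brightness differs between the slides was not tested.

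Over the 8 arrays of the slide the median Pearson correlation was 0.91 over 36 gene pairs (lowest -0.22, highest 0.99), and C2 did not follow the others, with values of -0.22 to 0.14. These points share a slide, and the 2 arrays of ZEB1-knock down after tMCAO stand apart from the other 6. Over the 6 arrays before tMCAO the median was 0.36 (lowest -0.60, highest 0.89). C2 was the gene in each of the 5 pairs with a negative value over 8 arrays, and C1qb with C3 was the highest pair. Among genes well above background on all 8 arrays, those whose levels followed the mean of the C1q genes most closely were Adam8, a membrane metalloprotease gene, Sgpl1, which encodes sphingosine-1-phosphate lyase, and Fbn1, which encodes fibrillin-1, with correlations of 0.998, 0.997 and 0.996 over 8 arrays and 15740 genes. For C3 they were Ncf4, a subunit gene of the phagocyte NADPH oxidase (0.995), Gm4907 (0.994) and the cell cycle gene Cks1b (0.994). For C3ar1 they were the spindle checkpoint gene Trip13 (0.996), Cped1 (0.995) and the transcription factor gene Elf1 (0.995). These 9 correlations are descriptions with no p, over arrays of which the 2 after tMCAO stand apart.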

How the data were processed

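RNA of CX3CR1-enriched mouse microglia was hybridised to 12 one-colour (Cy3) Agilent arrays, 2 in each of 6 groups taken from the sample titles. The deposited scanner files hold intensity values that the authors obtained with Feature Extraction 11.5.1.1, per the file headers (9.1 per the submitters' processing notes), already background-subtracted in the processed signal, together with other columns, the deposited yes or no marks for background, saturation and non-uniform or outlying spots. The authors' value table gives log2 values, whose column medians were -3.75 to -3.04 and whose 75th percentiles were near 0. It matches the scanner signal after subtraction of the 75th percentile, and for ZEB1-knock down after tMCAO each of its columns matched the file of the other replicate, so it was used as an alternative only.

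Here log2 processed signal minus the array's 75th percentile was used, with control and marked spots left out and spots of a probe averaged. The RefSeq table (GRCm38.p6) turned probe accessions into gene names and named 26762 of 55681 probes (48.1%) on the 4-array slide and 33767 of 56605 (59.7%) on the 8-array slide. Dim probes were dropped unless all arrays of 1 group or more had them well above background, and the probe with the highest mean level stood for its gene, with an unnamed probe's accession taken as a gene of its own, leaving 27935 and 30525 genes and unnamed targets, all called genes in the counts. Each slide was fitted with limma 3.58.1 (lmFit, eBayes; R 4.3.3) over all its groups, with Benjamini-Hochberg adjustment over all genes and a threshold of 0.05, in 5 comparisons. The scripts were tested on simulated data. The 9 genes and all lists were chosen with earlier results of these data known. All 9 genes were described in every comparison. Of other complement genes the text names those past the threshold and the 3 with the largest absolute difference in the comparison where most of the 9 moved, of each marker list the 2 with the highest mean level (some marker genes are not reported here), and the 3 genes most like C1q, C3 and C3ar1 by Pearson correlation. Itgam was chosen after its value was seen. Replicate numbers did not pair the samples (correlation of deviations 0.0933 on the 4-array slide and -0.193 to 0.260 on the 8-array slide). Alternatives were background correction, normalization, the authors' table, marked spots, the dim filter, the probe rule, the groups in the fit, the replicate block and leaving out each array. Normexp was planned on a mean-signal column that the files do not hold, and was run on the median signal, chosen after seeing the data.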

Additional observations from a re-analysis of the deposited data

How the results depend on the processing

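The 5 counts of complement genes called kept their value within 1.5 times under 79 settings and moved under 6. Among them, the counts before tMCAO were 0 in the main test, where 0 of all genes were called. A count that stayed at 0 was scored as kept, and these counts make up most of the 79. In ZEB1-overexpression against wild type after tMCAO the count was 1, and 0 without the dim filter, and leaving out 1 array gave 0 to 2. In ZEB1-knock down after against before tMCAO it was 6, and leaving out 1 array gave 2 to 7. Over all genes, 516 calls in the first became 330 with quantile normalization, 777 with the authors' table, 895 with marked spots kept, 940 with every probe, 0 without the filter and 39 to 1103 with 1 array left out. The 4460 in the second became 7392 with normexp, 2118 without the filter, 2310 with its 2 groups alone and 825 to 3971 with 1 array left out. Of the differences of single genes, 663 stayed on their side of the threshold, 16 lost it, 3 gained it and 35 changed sign; the causes were not tested.

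The sign changes were these. After tMCAO, ZEB1-overexpression against wild type, C1qb became 0.12 and C4b 0.012 with normexp, and C1qb 0.16, C1qc 0.14 and C4b 0.033 with quantile normalization. Before tMCAO, ZEB1-overexpression against wild type, C1qc became 0.085 and Serping1 0.15 with normexp, Serping1 0.0059 with quantile normalization, and C1qc 0.13 with the authors' table and 0.12 with marked spots kept. In ZEB1-overexpression against ZEB1-knock down C1qa became 0.014 with normexp, 0.085 with the authors' table and 0.064 with marked spots kept. On the other probe, Cfb became -0.24 in ZEB1-knock down after against before tMCAO, 0.022 in ZEB1-knock down against wild type, -0.34 in ZEB1-overexpression against ZEB1-knock down and -0.32 in ZEB1-overexpression against wild type, and C3 became -0.80 in ZEB1-knock down and -0.38 in ZEB1-overexpression, both against wild type. Averaged over probes, these C3 values were -0.38 and -0.043. With 1 array left out, C2 ran from -0.0019 to 0.54 in ZEB1-knock down after tMCAO and C1qc from -0.064 to 0.024 in ZEB1-overexpression after tMCAO. Before tMCAO, ZEB1-knock down against wild type gave -0.17 to 0.24 for C3 and -1.05 to 0.46 for Cfb, and ZEB1-overexpression against ZEB1-knock down gave -0.015 to 0.58 for C3ar1. ZEB1-overexpression against wild type gave -0.055 to 0.12 for C1qb, -0.11 to 0.066 for C1qc, -0.065 to 0.12 for C4b, -0.68 to 0.83 for Cfb, -0.066 to 0.029 for Serping1 and -0.26 to 0.34 for C3ar1.

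With the replicate number as a block, although the numbers did not pair the samples, 5 complement genes passed in ZEB1-knock down after tMCAO (C1qa did not, at 1.06, limma adjusted p = 0.0554) and 1 in ZEB1-overexpression after tMCAO, 0 passed before tMCAO, and C1qc changed sign to 0.0034 in ZEB1-overexpression against wild type before tMCAO. Normexp on the mean signal was not run. With 2 arrays a group and many C1q spots marked, differences as small as those before tMCAO were not resolved.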
